A study of Mus musculus with 8 samples.

Results

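The enzymes that make and degrade sphingomyelin, split ceramide and handle sphingosine were followed in RNA from mouse striatum. The set held 10 genes, chosen by symbol among the 55032 genes counted: the synthases Sgms1, Sgms2 and Samd8, the sphingomyelinases Smpd1, Smpd3 and Smpd4, the ceramidases Asah1 and Acer3, the sphingosine kinase Sphk2 and the lyase Sgpl1. All 10 were present in the table and all 10 passed the filter on low counts. At postnatal day 60 striatum, the input nucleus of the basal ganglia, was dissected from 4 wild type (WT) and 4 16p11.2+/- mice, and every mouse gave 1 library of total RNA. All 8 mice were female and of C57BL/6 background, and the 16p11.2+/- mice carried 1 copy of a segment of chromosome 7 that corresponds to human 16p11.2, a deletion studied as a model of autism spectrum disorder. The labels give no batch, no other allele and no treatment. Mice are called here by their labels, WT-1015, WT-1041, WT-1061 and WT-1063 for WT and DF-1018, DF-1037, DF-1059 and DF-1062 for 16p11.2+/-.

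Sphingomyelin is a membrane phospholipid that is abundant in myelin and in the outer leaflet of the plasma membrane. Sphingomyelin synthases put a phosphocholine head group on ceramide, sphingomyelinases remove it again, ceramidases cut ceramide into sphingosine and a fatty acid, sphingosine kinases phosphorylate sphingosine, and the lyase cleaves sphingosine-1-phosphate and so ends the pathway. The steps are held apart in the cell, with lysosomal enzymes for lipid that has been taken up and other enzymes in the Golgi, the endoplasmic reticulum, the nuclear envelope and the plasma membrane.

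Between 15125051 and 16523429 reads per mouse were counted on genes, with a median of 15756489. Compared in pairs within a genotype, the counts of the libraries gave a chi-square of 8.88 to 62.9 per degree of freedom, so no pair differed by as little as sampling noise (about 1) would give. Of 24 genes of the deleted segment 21 had enough counts to be tested, and in 16p11.2+/- mice all 21 were lower, by a median log2 fold change of -0.99 (range -1.29 to -0.54). Of these, 13 passed the adjusted threshold of edgeR and 16 had FPKM values that did not overlap between genotypes. The 8 markers of medium spiny neurons, the principal neurons of striatum, were detected in every mouse, but their score (the mean log2 CPM of the list, that is, of counts scaled to library size) was uneven. It was 8.10 to 8.85 in the WT mice, 8.64 and 8.78 in DF-1059 and DF-1018, and 6.74 and 6.31 in DF-1037 and DF-1062. The 7 thalamus markers scored 6.73 in WT-1063 and 3.40 to 3.62 in the other WT mice, and 3.93 to 6.58 in 16p11.2+/- mice. The 8 choroid plexus markers scored between -0.01 and 6.97 in WT and between 0.69 and 2.60 in 16p11.2+/- mice, with the highest value in WT-1063. Scores of the 6 cortical glutamatergic neuron markers were 3.16 to 5.88 in WT and 2.71 to 6.46 in 16p11.2+/- mice, and those of the 6 meningeal fibroblast markers 0.92 to 2.96 and 1.13 to 1.43. For oligodendrocytes (10 markers) the scores were 8.30 to 8.68 in WT and 7.72 to 8.33 in 16p11.2+/- mice. The astrocyte, microglia and endothelial scores spanned 7.87 to 8.17, 4.67 to 5.50 and 4.96 to 5.63 over the 8 mice. No marker of any of these lists was at 0 in every mouse.

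The members lie on 7 chromosomes, given here on GRCm38 with GENCODE M21. On chromosome 7, which carries the deletion, Smpd1 (ENSMUSG00000037049, chr7:105554360-105558389, + strand), Acer3 (ENSMUSG00000030760, chr7:98206389-98321208, - strand) and Sphk2 (ENSMUSG00000057342, chr7:45709467-45718002, - strand) were 21.1, 28.4 and 81.0 Mb from the nearest gene of the deleted list, so none of them is in the deleted segment. The promoters of Sgms2 and Smpd1 are shown because these members had the WT mouse farthest from its group, the same mouse WT-1063 for both, and because Sgms2 has several annotated starts that a gene-level count adds together. Each window runs from 250 bases before to 50 bases after a RefSeq start (GRCm38.p6), 5′ to 3′ on the strand of the gene, with the GC box (GGGCGG or, on the other strand, CCGCCC) and the E-box (CACGTG, the same on both strands) in capitals.
Smpd1, chr7:105554110-105554409, + strand: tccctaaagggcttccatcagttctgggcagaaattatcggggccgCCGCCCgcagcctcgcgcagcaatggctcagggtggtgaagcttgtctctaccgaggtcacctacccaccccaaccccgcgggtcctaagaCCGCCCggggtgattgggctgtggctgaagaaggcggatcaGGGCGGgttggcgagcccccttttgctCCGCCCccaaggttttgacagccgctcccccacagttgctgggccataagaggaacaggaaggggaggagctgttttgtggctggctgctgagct
Sgms2, chr3:131491394-131491693, - strand: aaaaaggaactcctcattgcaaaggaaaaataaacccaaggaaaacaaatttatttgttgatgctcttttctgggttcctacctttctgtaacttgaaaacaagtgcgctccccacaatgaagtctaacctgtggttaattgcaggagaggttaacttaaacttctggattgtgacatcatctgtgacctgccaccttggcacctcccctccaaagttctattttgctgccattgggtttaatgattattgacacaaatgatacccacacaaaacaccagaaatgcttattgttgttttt
Sgms2, chr3:131490181-131490480, - strand: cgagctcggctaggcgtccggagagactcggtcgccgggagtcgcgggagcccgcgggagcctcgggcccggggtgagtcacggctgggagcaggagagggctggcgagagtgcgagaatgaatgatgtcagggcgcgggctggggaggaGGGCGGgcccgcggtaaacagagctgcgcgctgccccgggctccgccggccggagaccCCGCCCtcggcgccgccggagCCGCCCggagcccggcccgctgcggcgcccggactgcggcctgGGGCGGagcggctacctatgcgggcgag
Sgms2, chr3:131488993-131489292, - strand: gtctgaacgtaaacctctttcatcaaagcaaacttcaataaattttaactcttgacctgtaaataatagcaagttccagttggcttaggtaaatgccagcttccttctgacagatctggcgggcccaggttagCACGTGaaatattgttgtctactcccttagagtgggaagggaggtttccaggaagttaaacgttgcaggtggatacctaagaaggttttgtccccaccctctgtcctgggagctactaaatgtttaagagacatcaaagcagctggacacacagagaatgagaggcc

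The Sgms2 window at chr3:131491394-131491693 holds 39.0% G and C and neither motif, that at chr3:131490181-131490480 holds 77.7% G and C and 4 GC boxes, and that at chr3:131488993-131489292 holds the E-box, which begins 117 bases before the start. Not shown are the Sgms2 windows at chr3:131490611-131490910 (1 GC box), chr3:131489720-131490019 (2 GC boxes) and chr3:131344859-131345158 (0 GC boxes). In RefSeq 8 of the 10 members matched, with 19 windows between them, of which 12 hold a GC box and 1 an E-box. Sgms1 and Sgms2 have several windows each, so these are counts of windows and not of members. Among all 32851 windows of the same length a GC box stands in 35.7% and an E-box in 7.15%. These are matches of letters and were not tested as binding sites, and the counts do not tell which start was used in which mouse.

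No member passed the threshold in the comparison of genotypes. By the quasi-likelihood test of edgeR, run on counts of all 8 mice with Benjamini-Hochberg adjustment over the 18294 genes tested, 0 of 10 members had an adjusted p under 0.05, against 0.109% of all genes (20 genes). Without adjustment 0 of 10 members had a p under 0.05, against 4.32% of all genes, and the smallest unadjusted p of a member was 0.132. With limma-voom 0 of 10 members passed, adjusted or unadjusted (0.109% and 4.27% of all genes), and with DESeq2 0 of the 9 members to which it gave a p (0.17% and 4.67%), Sgms2 having none. Log2 fold changes (16p11.2+/- against WT, negative for lower in 16p11.2+/-) were below 0 for 7 members and above 0 for 3, beside 51.8% of all genes below 0. Their median was -0.05, against -0.01 for all genes, and their median size without sign was 0.12, against 0.14. FPKM, which is the count scaled by the length of the gene and by the library total, overlapped between the groups for all 10 members, while 2.83% of all genes did not overlap. The exact permutation test on FPKM, two-sided over the 70 ways to split 8 mice into 4 and 4, can give no p below 0.0286, and its smallest p among the members was 0.257.

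**Figure D1:**
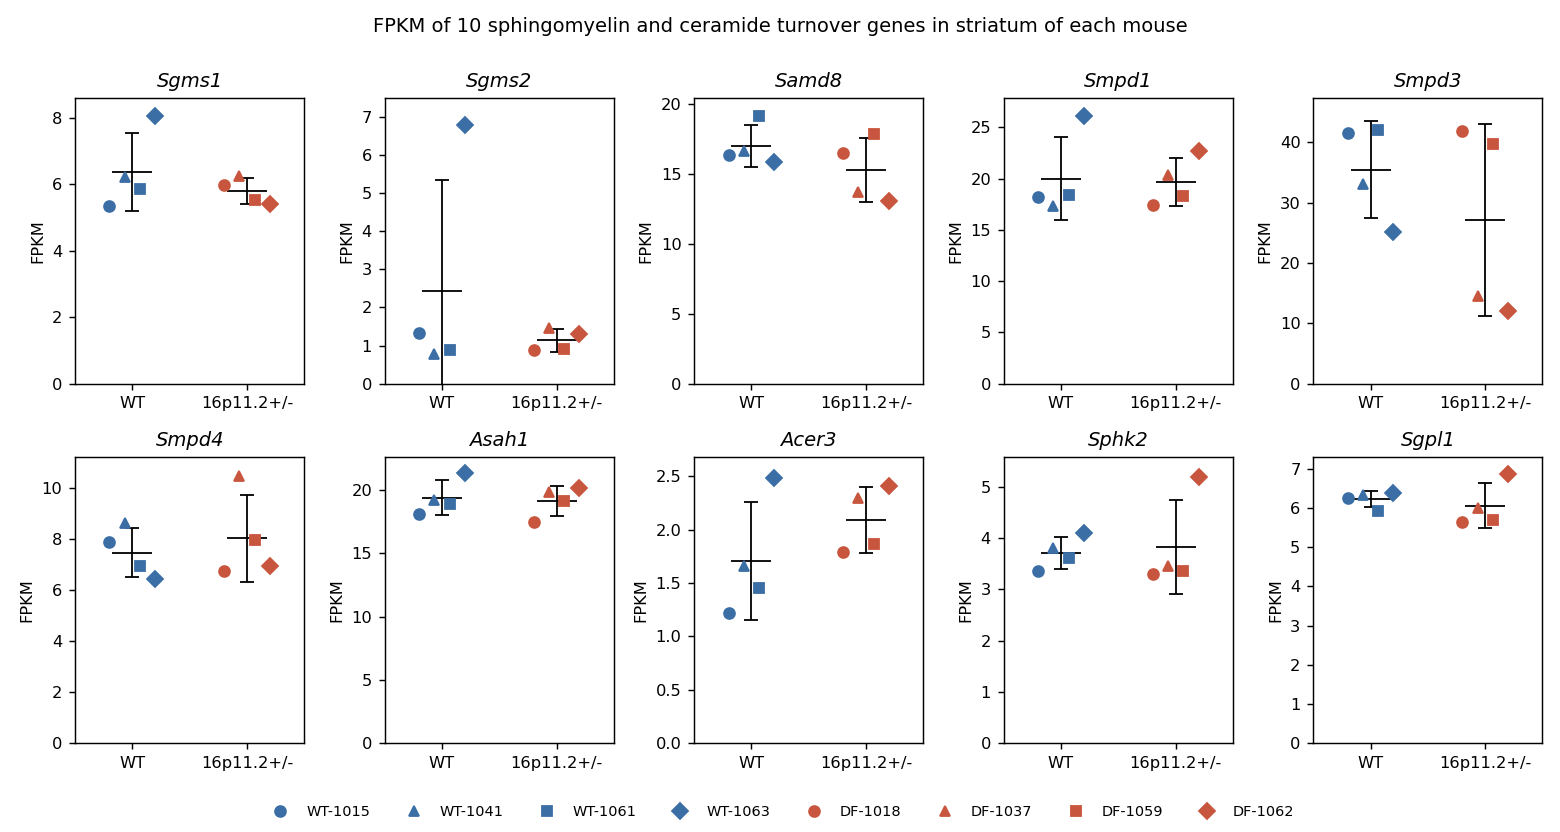
FPKM (vertical axis of each panel, starting at 0) of the 10 members in each of the 4 WT and 4 16p11.2+/- mice, with the mean and SD of each group (the lower SD bar of Sgms2 in WT is cut at 0). Points of the groups overlap in all 10 panels. WT-1063 is the point far above all others in the Sgms2 panel and the point far above the other WT points in the Smpd1 panel.

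Among the synthases, Sgms1 (ENSMUSG00000040451, chr19:32122727-32389714, - strand) encodes the sphingomyelin synthase of the Golgi. Its FPKM was 5.35, 6.22, 5.85 and 8.05 in WT-1015, WT-1041, WT-1061 and WT-1063, and 5.98, 6.25, 5.54 and 5.41 in DF-1018, DF-1037, DF-1059 and DF-1062. All 16p11.2+/- values lay inside the WT range, and WT-1063 was the highest of the 8. The mean was 6.37 ± 1.18 (SD, n = 4) for WT and 5.79 ± 0.391 (SD, n = 4) for 16p11.2+/- mice (exact permutation p = 0.543). The difference of -0.579 was smaller in size than the WT SD and larger than the 16p11.2+/- SD. Without WT-1063 the WT SD was 0.436. On the counts the log2 fold change was -0.16 (standard error 0.13, 95% confidence interval -0.45 to 0.14, edgeR adjusted p = 0.859), and without WT-1063 it was -0.026 (standard error 0.096).

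Sgms2 (ENSMUSG00000050931, chr3:131318985-131491411, - strand) encodes the synthase found at the plasma membrane and in the Golgi. Its FPKM was 1.33, 0.776, 0.872 and 6.77 in the WT mice in the same order, and 0.875, 1.45, 0.899 and 1.31 in the 16p11.2+/- mice. The counts behind these values were 125, 74, 89 and 682 in WT and 83, 139, 91 and 135 in 16p11.2+/- mice. WT-1063 alone stood at 7.54 times the median of the other 7 mice, and those 7 lay between 0.776 and 1.45. The mean FPKM of 2.44 ± 2.90 (SD, n = 4) in WT therefore had an SD larger than itself, beside 1.13 ± 0.293 (SD, n = 4) for 16p11.2+/- mice (exact permutation p = 0.8286). The edgeR log2 fold change was -1.12 (standard error 0.68, 95% confidence interval -2.65 to 0.41, adjusted p = 0.859), and without WT-1063 it was 0.16 (standard error 0.26, adjusted p = 0.843), with the sign turned. WT-1063 was also the mouse with the highest choroid plexus score, at 6.97, and the choroid plexus list includes Ttr, the thyroid hormone carrier made in large amounts by that tissue, whose FPKM was 4273 in WT-1063, 453 in WT-1015 and 1.12 to 117 in the other 6 mice. The 3 mice with the highest Sgms2 level were the 3 with the highest choroid plexus score, and the lowest 3 were also shared in log2 CPM (2 of 3 in FPKM). The markers Ttr, Folr1, Kl, Kcne2, Kcnj13 and Slc4a5 had the same 3 mice highest in FPKM, but Clic6 and Otx2 did not. Clic6 was lowest of all mice in DF-1037 (4.36), and Otx2 was higher in DF-1062 (1.81) than in WT-1015 (1.54). With the choroid plexus score as a covariate the log2 fold change of Sgms2 was 0.12 (standard error 0.27). WT-1063 also had the highest thalamus score (6.73) and the highest meningeal fibroblast score (2.96). The Pearson r of Sgms2 in log2 CPM was 0.935 with the choroid plexus, 0.965 with the meningeal fibroblast and 0.608 with the thalamus score. These scores share WT-1063 as their highest mouse, and the part of each in the Sgms2 values was not tested.

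Samd8 (ENSMUSG00000021770, chr14:21750531-21798726, + strand) encodes a relative of these synthases in the endoplasmic reticulum that makes ceramide phosphoethanolamine. Its FPKM was 16.3, 16.6, 19.2 and 15.9 in WT and 16.5, 13.7, 17.9 and 13.1 in 16p11.2+/- mice. DF-1037 and DF-1062 were below all WT mice, and DF-1018 and DF-1059 were inside the WT range. The means were 16.99 ± 1.48 (SD, n = 4) and 15.3 ± 2.27 (SD, n = 4), with an exact permutation p of 0.257, and the edgeR log2 fold change was -0.17 (standard error 0.13, 95% confidence interval -0.46 to 0.12, adjusted p = 0.859). The same DF-1037 and DF-1062 had the lowest medium spiny neuron scores. With that score as a covariate, a fit added after the data were seen, the log2 fold change of Samd8 was -0.01 (standard error 0.07). The part of that score in the Samd8 values was not tested.

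Smpd3 (ENSMUSG00000031906, chr8:106252548-106337988, - strand) encodes a neutral sphingomyelinase of the plasma membrane and Golgi that is prominent in brain, and its FPKM had the highest mean of the 10 members. The values were 41.6, 33.1, 42.1 and 25.1 in the WT mice and 41.9, 14.6, 39.8 and 12.1 in the 16p11.2+/- mice. DF-1037 and DF-1062 were below all WT mice, while DF-1018 and DF-1059 were close to WT-1015 and WT-1061. The mean FPKM was 35.5 ± 8.04 (SD, n = 4) for WT and 27.1 ± 15.9 (SD, n = 4) for 16p11.2+/- mice (exact permutation p = 0.314). The log2 fold change was -0.40 with a standard error of 0.42 (95% confidence interval -1.36 to 0.56, edgeR adjusted p = 0.873), so the interval covers both a fold of 0.390 and a fold of 1.48. About 4.72% of the exon sequence of Smpd3 is shared with Prmt7 on the opposite strand.

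By FPKM of Smpd3 the 8 mice stood in the same order as by medium spiny neuron score, in 8 of 8 places, and by its log2 CPM in 6 of 8 places. The score spanned 2.55 and Smpd3 spanned 1.91 on the log2 scale. Drd1, the dopamine receptor of the direct pathway and a gene of that list, had an FPKM of 74.8, 52.1, 78.1 and 47.9 in WT and 73.9, 18.3, 62.3 and 14.6 in 16p11.2+/- mice, with the same DF-1037 and DF-1062 lowest. With the score as a covariate the log2 fold change of Smpd3 was 0.07 (standard error 0.09), and without the 3 mice of lowest score (WT-1063, DF-1037 and DF-1062) it was also 0.07 (standard error 0.12). Both fits were added after the data were seen, and the part of the score in the Smpd3 values was not tested. In bulk tissue fewer cells of a type and less RNA per cell cannot be told apart. Outside the rule for named genes, and chosen after the values were seen, the genes nearest to Smpd3 over the 8 mice among 14856 genes compared were Ptpn5, Gm35394, Bcl11b, Actn2 and Zswim6, with a Pearson r of log2 CPM of 0.995 to 0.997. Ptpn5, a tyrosine phosphatase enriched in striatum, had an FPKM of 97.9, 81.4, 96.0 and 64.4 in WT and 98.8, 47.4, 91.9 and 43.0 in 16p11.2+/- mice. All points of these comparisons share their libraries, so the coefficients describe these 8 mice and carry no test.

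Smpd1 (ENSMUSG00000037049) encodes the acid sphingomyelinase of the lysosome, whose loss causes Niemann-Pick disease types A and B. Its FPKM was 18.2, 17.3, 18.4 and 26.0 in WT and 17.4, 20.3, 18.3 and 22.7 in 16p11.2+/- mice. The other 3 WT mice were between 17.3 and 18.4 and WT-1063 was far above them, and all 16p11.2+/- values lay inside the WT range. The means of 19.98 ± 4.07 (SD, n = 4) and 19.7 ± 2.35 (SD, n = 4) differed by less than either SD (exact permutation p = 0.886). The edgeR log2 fold change was -0.05 (standard error 0.13, 95% confidence interval -0.35 to 0.26, adjusted p = 0.945), and without WT-1063 it was 0.10 (standard error 0.09).

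Smpd4 (ENSMUSG00000005899, chr16:17619354-17644828, + strand) encodes a neutral sphingomyelinase of the endoplasmic reticulum and nuclear envelope. Its FPKM was 7.91, 8.63, 6.94 and 6.45 in WT and 6.75, 10.5, 7.97 and 6.96 in 16p11.2+/- mice. DF-1037 was above all WT mice and the other 16p11.2+/- mice were inside the WT range. The means were 7.48 ± 0.974 (SD, n = 4) and 8.04 ± 1.71 (SD, n = 4), the exact permutation p was 0.629, and the edgeR log2 fold change was 0.08 (standard error 0.16, 95% confidence interval -0.28 to 0.44, adjusted p = 0.919). Without DF-1037 the sign turned, with a log2 fold change of -0.070 (standard error 0.12). The cortical glutamatergic neuron score was 5.67, 5.88, 4.66 and 3.16 in WT and 2.71, 6.46, 4.73 and 3.54 in 16p11.2+/- mice. Its 3 highest and 3 lowest mice were those of Smpd4 in log2 CPM, while in FPKM 2 of 3 were shared at either end, with DF-1037 highest on every scale. The part of that score in the Smpd4 values was not tested.

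**Figure D2:**
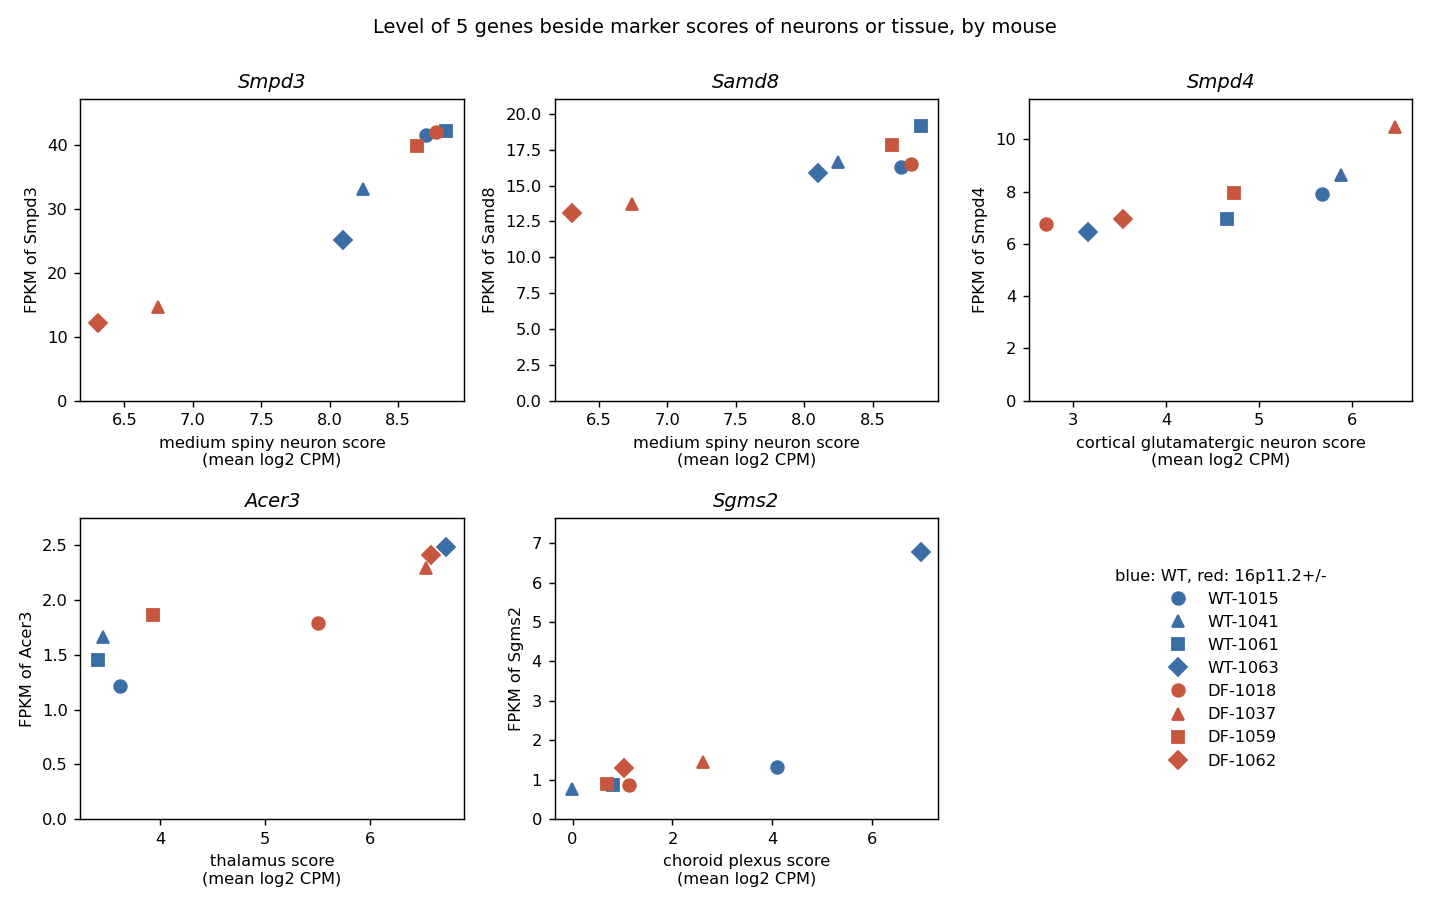
FPKM of 5 members (vertical axes, starting at 0) against a marker score (mean log2 CPM, horizontal axes) in the 4 WT (blue) and 4 16p11.2+/- (red) mice, 1 point per mouse, with Smpd3 and Samd8 beside medium spiny neurons, Smpd4 beside cortical neurons, Acer3 beside thalamus and Sgms2 beside choroid plexus. DF-1037 and DF-1062 are lowest on both axes of the Smpd3 and Samd8 panels, and WT-1063 is highest on both axes of the Sgms2 and Acer3 panels.

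Of the ceramidases, Asah1 (ENSMUSG00000031591, chr8:41340197-41374773, - strand) encodes the acid ceramidase of the lysosome, whose loss causes Farber disease. Its FPKM was 18.1, 19.2, 18.9 and 21.3 in WT and 17.5, 19.8, 19.1 and 20.2 in 16p11.2+/- mice. The groups were interleaved, with WT-1063 highest and DF-1018 lowest, and the highest value was only 1.22 times the lowest. The means were 19.4 ± 1.37 (SD, n = 4) and 19.1 ± 1.19 (SD, n = 4), with an exact permutation p of 0.800. Asah1 had one of the narrowest intervals of the set, with an edgeR log2 fold change of -0.04 (standard error 0.07, adjusted p = 0.912) and 95% confidence limits of 0.870 and 1.09 as folds.

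Acer3 (ENSMUSG00000030760) encodes alkaline ceramidase 3, an enzyme of the endoplasmic reticulum and Golgi that prefers ceramides with unsaturated long chains. Its FPKM was 1.22, 1.66, 1.45 and 2.48 in WT and 1.79, 2.30, 1.87 and 2.41 in 16p11.2+/- mice. All 4 16p11.2+/- mice were above WT-1015, WT-1041 and WT-1061 and below WT-1063. The means were 1.70 ± 0.550 (SD, n = 4) and 2.09 ± 0.307 (SD, n = 4), the exact permutation p was 0.257, and the edgeR log2 fold change was 0.27 (standard error 0.20, 95% confidence interval -0.18 to 0.73, adjusted p = 0.859). Without WT-1063 it was 0.51 (standard error 0.14, edgeR unadjusted p = 0.00581, adjusted p = 0.512, exact permutation p = 0.0571). In that set of 7 mice 8.21% of the genes tested had an unadjusted p under 0.05, 0.0966% an adjusted p under 0.05 and 10.2% groups that did not overlap. Without the 3 mice of lowest medium spiny neuron score (WT-1063, DF-1037 and DF-1062) Acer3 was the 1 member with an unadjusted p under 0.05 (log2 fold change 0.35, standard error 0.13, edgeR unadjusted p = 0.0341, adjusted p = 0.557), where 8.49% of the genes were under 0.05 unadjusted and 0.0851% adjusted.

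The thalamus score of the same mice was 3.62, 3.46, 3.40 and 6.73 in WT and 5.50, 6.54, 3.93 and 6.58 in 16p11.2+/- mice. As for Acer3, WT-1063 was above every 16p11.2+/- mouse by the score, and the other WT mice were below every 16p11.2+/- mouse. This order is that of the mean, and no single marker of the list had all of it. The 3 highest and the 3 lowest mice were the same by Acer3 and by the score. Slc17a6, the vesicular glutamate transporter of thalamic relay neurons and a gene of that list, had an FPKM of 1.82, 1.58, 2.37 and 44.7 in WT and 16.8, 40.5, 5.47 and 56.0 in 16p11.2+/- mice. In it DF-1062 was above WT-1063. Calb2, also of the list, had an FPKM of 88.8 in DF-1062 and 23.5 in WT-1063. Prkcd had 6.01 in DF-1059, below 14.1 in WT-1041. With the thalamus score as a covariate the log2 fold change of Acer3 was 0.06 (standard error 0.13), and the part of that score in the Acer3 values was not tested. In the same fit Sgms2 stood at -1.41 on the log2 scale (standard error 0.34, edgeR unadjusted p = 0.00324, adjusted p = 0.741) and Smpd1 at -0.20 (standard error 0.084, edgeR unadjusted p = 0.0426, adjusted p = 0.99998). These were 2 of 10 members, against 4.05% of all genes with an unadjusted p under 0.05 in that fit and 0.0711% with an adjusted one, and both members had their highest value in WT-1063.

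Sphk2 (ENSMUSG00000057342) encodes the sphingosine kinase found in the nucleus and mitochondria, which makes sphingosine-1-phosphate. Its FPKM was 3.35, 3.80, 3.61 and 4.09 in WT and 3.30, 3.45, 3.36 and 5.19 in 16p11.2+/- mice. DF-1062 was above all WT mice, and the other 3 16p11.2+/- mice were in the lower part of the WT range or just below it. The means were 3.71 ± 0.310 (SD, n = 4) and 3.82 ± 0.916 (SD, n = 4), the exact permutation p was 0.943 and the edgeR log2 fold change was 0.01 (standard error 0.15, 95% confidence interval -0.32 to 0.35, adjusted p = 0.983). Without DF-1062 the log2 fold change was -0.13. The counts of Sphk2 are uncertain, since 21.9% of its exon sequence is shared with Dbp and Rpl18 on the opposite strand and the strand setting of the counting is not given in the sources used here.

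Sgpl1 (ENSMUSG00000020097, chr10:61098642-61147703, - strand) encodes the lyase of the endoplasmic reticulum that cleaves sphingosine-1-phosphate. Its FPKM was 6.25, 6.34, 5.92 and 6.38 in WT and 5.64, 6.00, 5.70 and 6.88 in 16p11.2+/- mice. DF-1018 and DF-1059 were below all WT mice, DF-1037 was inside the WT range and DF-1062 was the highest of the 8. The means of 6.23 ± 0.211 (SD, n = 4) and 6.05 ± 0.571 (SD, n = 4) gave an exact permutation p of 0.600. With a log2 fold change of -0.06 (standard error 0.07, edgeR adjusted p = 0.874), its 95% confidence limits were 0.857 and 1.07 as folds, close in width to those of Asah1.

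**Figure D3:**
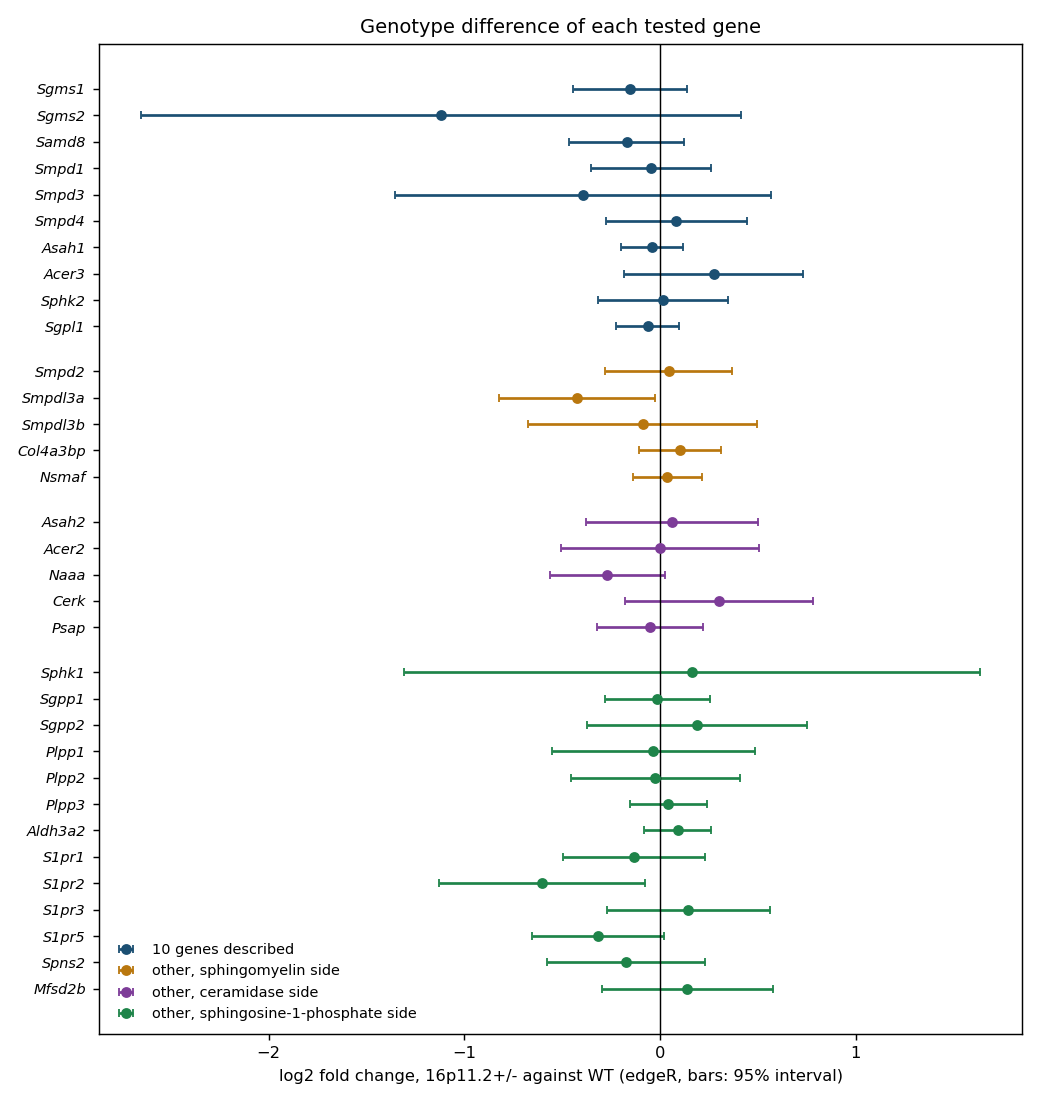
Log2 fold change of each member (16p11.2+/- against WT, horizontal axis) and of each other pathway gene tested, from edgeR on the counts, with 95% confidence intervals. All 10 intervals of the members include 0, the widest of these is that of Sgms2 (-2.65 to 0.41) and those of Asah1 and Sgpl1 are the narrowest.

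Ranked by mean FPKM over the 8 mice, the members stood in the order Smpd3 (31.3), Smpd1 (19.8), Asah1 (19.3), Samd8 (16.1), Smpd4 (7.76), Sgpl1 (6.14), Sgms1 (6.08), Sphk2 (3.77), Acer3 (1.90) and Sgms2 (1.79). The ranges of neighbours were separate between Samd8 and Smpd4, between Sgms1 and Sphk2 and between Sphk2 and Acer3, and they overlapped for the other 6 pairs of neighbours. Both lysosomal enzymes, Smpd1 and Asah1, were thus in the upper group, and of the synthases Samd8 was the highest in FPKM in every mouse. The spread over mice differed more between members than their order would show. Asah1 and Sgpl1 had a coefficient of variation of 6.21% and 6.66%, while Smpd3 had 40.0% and Sgms2 114%. Smpd3 had the highest FPKM of the 10 members in 5 mice, but it was the second in WT-1063, the third in DF-1037 and the fourth in DF-1062. WT-1063 had the highest FPKM of the 8 mice for 5 members, Sgms1, Sgms2, Smpd1, Asah1 and Acer3.

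For members with a mouse far from its group, the 5 genes with the most similar log2 CPM over the 8 mice were listed. Those of Sgms2 were Piezo1, Bsg, Rdh5, Nid2 and Pbxip1 (Pearson r 0.982 to 0.992), and Bsg, a cell surface glycoprotein of endothelium and epithelia, had an FPKM of 254 in WT-1063 and 117 to 157 in the other 7 mice. For Smpd1 they were Pdgfd, Vezf1, Slc5a6, Mtfr1 and Emb (0.971 to 0.994), and Pdgfd, a growth factor of the PDGF family, had an FPKM of 6.51 in WT-1063 and 1.57 to 3.38 in the others. Those of Sphk2 were Coq3, Ift81, Gm10471, Trappc5 and Puf60 (0.947 to 0.969), all highest in DF-1062. With 8 mice, 1 or 2 of which are far from the rest, these coefficients rest on those mice and describe the shared libraries only.

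Of 27 other genes of the pathway, 23 had enough counts to be tested and 0 passed the adjusted threshold in edgeR. Their log2 fold changes were below 0 for 11 and above 0 for 12, and 1 of the 23 had groups that did not overlap in FPKM, beside 2.83% of all genes. Without adjustment 2 of the 23 had a p under 0.05, against 4.32% of all genes. Both were lower in 16p11.2+/- mice, as were 2.37% of all genes. On the sphingomyelin side (5 of 7 genes tested) this was Smpdl3a, which encodes a lysosomal and secreted relative of acid sphingomyelinase. Its FPKM was 12.1, 12.2, 12.6 and 19.3 in WT and 11.7, 11.4, 10.4 and 8.94 in 16p11.2+/- mice, so that every 16p11.2+/- mouse was below every WT mouse, if only just for DF-1018. The log2 fold change was -0.42 (standard error 0.17, edgeR unadjusted p = 0.0388, adjusted p = 0.859), and the exact permutation p was 0.0286. The edgeR p was under 0.05 in 14 of 21 alternatives, and without WT-1063 the gene stood at -0.24 on the log2 scale (standard error 0.13, edgeR unadjusted p = 0.0978). That p was 0.05 or above also without DF-1059 (0.0782), without DF-1062 (0.103), without the 3 mice of lowest medium spiny neuron score and with the choroid plexus, oligodendrocyte or medium spiny neuron score as a covariate.

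On the ceramidase side 5 of 6 genes were tested and 0 had an unadjusted edgeR p under 0.05. On the side of sphingosine-1-phosphate (13 of 14 genes tested) S1pr2, which encodes a receptor for that lipid, had an FPKM of 0.315, 0.229, 0.383 and 0.287 in WT and 0.214, 0.237, 0.162 and 0.197 in 16p11.2+/- mice. DF-1037 was inside the WT range and the other 3 were below it. Its log2 fold change was -0.60 (standard error 0.23, edgeR unadjusted p = 0.0286, adjusted p = 0.859), the exact permutation p was 0.0571, and its counts were only 21 to 50 per mouse. In 11 of 21 alternatives the unadjusted p of S1pr2 was 0.05 or above, among them both limma-trend fits, every score covariate and the fits without WT-1015 (0.0636), WT-1061 (0.0933), DF-1059 (0.0786) or DF-1062 (0.0653).

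The closest relatives of the members were at unequal levels in FPKM. Sphk1, the other sphingosine kinase, had 0.038 to 0.355 over the 8 mice (3 to 26 counts), below Sphk2 in every mouse. Acer2, the Golgi ceramidase, had 2.34 to 4.79, and Smpd2, a further neutral sphingomyelinase, had 2.16 to 3.10, far below Smpd3. Besides Sphk1 and S1pr2, an FPKM under 1 in every mouse was found for Smpd5, S1pr4 and Mfsd2b, and Enpp7, an intestinal alkaline sphingomyelinase, and Acer1, a ceramidase of the epidermis, had 0 counts in each of the 8 mice.

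Sensitivity to the processing was followed for each log2 fold change under 21 alternatives, including other tools, scalings and filters, score covariates and each mouse left out. In none of them did a member pass the adjusted threshold, and the smallest adjusted p of any member was 0.512 (Acer3 without WT-1063). The sign was the same under every alternative for Sgms1, Acer3 and Sgpl1, and it turned under at least 1 alternative for the other 7 members.

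**Figure D4:**
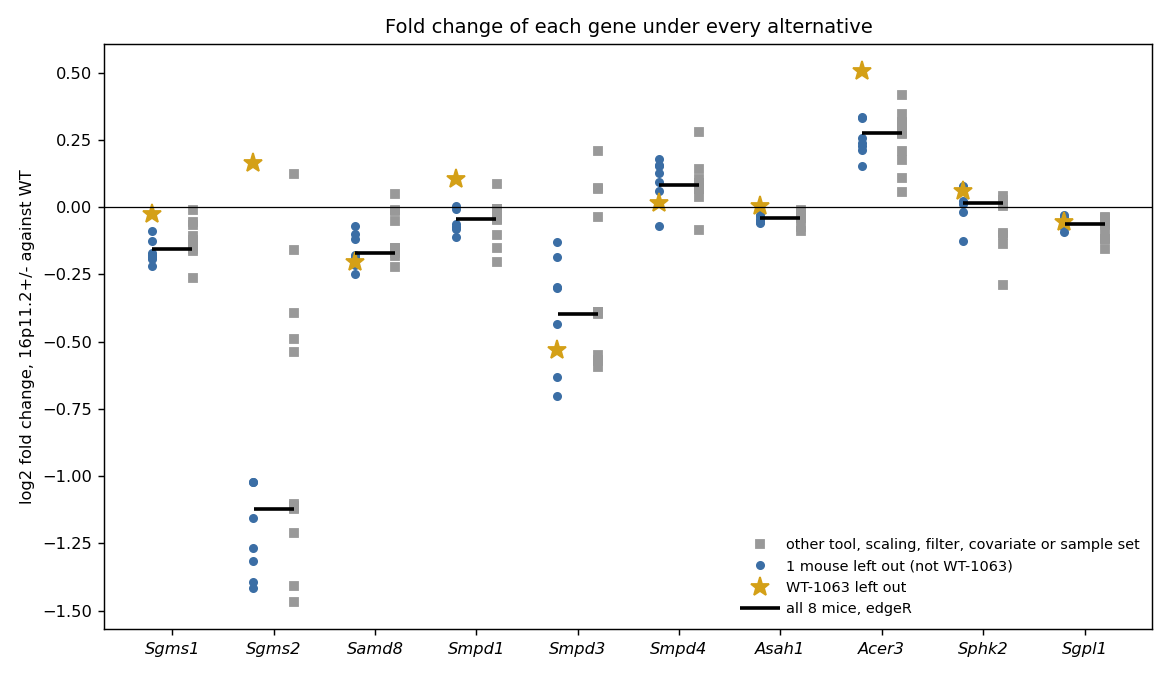
Log2 fold change of each member (vertical axis) in the fit to all 8 mice (black line), with each mouse left out (blue, WT-1063 as a star) and under the other alternatives (grey). The points of Sgms2 run from -1.47 to 0.16 and those of Sphk2, Smpd1 and Smpd4 lie on both sides of 0, while those of Acer3 stay above it.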

How the data were processed

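The members and gene lists were chosen with earlier results of these data known. Total RNA was sequenced from both ends. The authors filtered reads for quality and adapters, aligned them with Hisat2 2.1.0, counted them with Htseq-count and deposited raw counts per gene and mouse. The submitters' processing notes also name Bowtie 0.12.2, mm8 and mm9. The annotation and strand setting are not given in the sources used here. The authors also deposited FPKM, which was checked to equal the count over the library total and over 1 length per gene. These lengths equal GENCODE M21 exon lengths within 1% for 95.7% of 11704 genes with 800 or more counts. For Sgms1 the implied length is 10299 bases against 10546. A deposited table of fold changes and p-values from DESeq2 1.28.1 was not used.

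The main test on counts was the quasi-likelihood test of edgeR 4.0.16 (R 4.3.3) after TMM normalization and filterByExpr (count minimum 10, total minimum 15), with Benjamini-Hochberg adjustment and a threshold of 0.05. Total counts per mouse were 15125051 to 16523429, and 18294 genes were tested. Replicates are separate mice. FPKM was compared with two-sided exact permutation tests. Marker scores are the mean log2 CPM of a list, with a prior count of 2. Named were all members, pathway genes with an unadjusted p under 0.05, an FPKM under 1 in every mouse or the closest kinship to a member, and the 5 genes (mean log2 CPM of at least 1) most like each member with a mouse far from its group. Alternatives were RLE factors, library totals, other filters, DESeq2 1.42.0, voom and limma-trend from limma 3.58.1 (pseudocounts 1 and 0.1), score covariates and leaving out single mice. The edgeR fit was first run on counts simulated independently for each gene. These held no shared tissue differences between mice, and no result given here rests on them. Promoter windows came from RefSeq (GRCm38.p6). Other assays of the study, such as lipidomics, were not analysed here.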

Additional observations from a re-analysis of the deposited data

Results flagged for a closer look

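A mouse was examined more closely where its gap to the nearest mouse of its group exceeded, as a share of the range of the group, the 95% critical value of Dixon's test for 4 values. Of 38 groups of 4 values (20 of members, 18 of marker scores) 6 were past it, 4 of them through WT-1063. For independent groups of normally distributed values chance would give about 1 in 20. These groups are values of the same mice and are not independent, so the count is no test against that rate. The FPKM of Sgms2 was 6.77 in WT-1063 and 0.776 to 1.33 in the other WT mice (gap over range 0.908). For Smpd1 it was 26.0 in WT-1063 and 17.3 to 18.4 in the others (0.872). Sphk2, whose exons overlap those of Dbp and Rpl18, had 5.19 in DF-1062 and 3.30 to 3.45 in the other 16p11.2+/- mice (0.921). Of the scores, that of thalamus was 6.73 in WT-1063 and 3.40 to 3.62 in the other WT mice (0.936). The meningeal fibroblast score was 2.96 in WT-1063 and 0.92 to 1.23 in the other WT mice (0.851), and 1.13 in DF-1018 and 1.39 to 1.43 in the other 16p11.2+/- mice (0.876).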

How the results depend on the processing

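No paired analysis was possible because WT and 16p11.2+/- mice have no number in common. Under every alternative 0 members (of 10, or of 9 with DESeq2, which gave no p for Sgms2) and 0 other pathway genes passed the adjusted threshold. The number of members with an unadjusted p under 0.05 was 0, except 2 with the thalamus score as a covariate (Sgms2, Smpd1), 1 without the 3 mice of lowest medium spiny neuron score (Acer3, log2 fold change 0.35, standard error 0.13, edgeR adjusted p = 0.557) and 0 to 1 with each mouse left out (Acer3 without WT-1063). Over all genes 20 passed, against 31 with DESeq2, 13 with the thalamus score and 5 with the oligodendrocyte score as covariates, and 8 to 18 with each mouse left out.

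Of 210 alternative log2 fold changes of members 18 turned their sign. With the choroid plexus score as a covariate Sgms2 was 0.12 and Smpd1 0.085, with the oligodendrocyte score Samd8 was 0.047, Smpd3 0.21 and Sphk2 -0.29, and with the thalamus score Sphk2 was -0.10. Chosen after seeing the data, the medium spiny neuron score as a covariate gave 0.069 for Smpd3 and -0.14 for Sphk2, and leaving out the 3 mice of lowest score gave 0.072 for Smpd3, -0.087 for Smpd4 and -0.11 for Sphk2. With each mouse left out Sgms1 was -0.22 to -0.03, Sgms2 -1.42 to 0.16, Samd8 -0.25 to -0.07, Smpd1 -0.11 to 0.10, Smpd3 -0.70 to -0.13, Smpd4 -0.070 to 0.18, Asah1 -0.059 to 0.0042, Acer3 0.15 to 0.51, Sphk2 -0.13 to 0.077 and Sgpl1 -0.09 to -0.03. The difference in mean FPKM then ran from -1.86 to 0.143 for Sgms2, from -1.30 to 1.73 for Smpd1, from -0.259 to 0.986 for Smpd4, from -0.678 to 0.393 for Asah1 and from -0.346 to 0.287 for Sphk2. The causes were not tested. The standard error of Sgms2 was 0.68 with WT-1063 and 0.26 without it. With 3 to 26 counts per mouse the interval of Sphk1 (-1.31 to 1.64) allows no statement.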

Other observations

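Chosen after their values were seen, the following pathway genes fill in steps next to the members, in FPKM over the 8 mice. Psap, the precursor of the saposins that present sphingolipids to lysosomal hydrolases, was at 396 to 552, the highest of the pathway. Col4a3bp, which carries ceramide from the endoplasmic reticulum to the Golgi, was at 14.2 to 19.0, and Plpp3, a lipid phosphate phosphatase, at 65.5 to 81.9. Of the receptors for sphingosine-1-phosphate, S1pr1 was at 33.4 to 52.8. S1pr5, the receptor known from oligodendrocytes, had 8.60, 7.41, 10.6 and 7.52 in WT and 6.51, 8.26, 6.32 and 6.75 in 16p11.2+/- mice (log2 fold change -0.32, standard error 0.15, edgeR unadjusted p = 0.0639, adjusted p = 0.859). In 3 of 4 16p11.2+/- mice it was below all WT mice, and the share of all genes with such a partial separation was not counted. With each mouse left out the log2 fold change of S1pr5 was -0.41 to -0.18 (edgeR unadjusted p 0.0240 to 0.214).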
